A study of Mus musculus with 8 samples.

Results

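The liver X receptor (LXR) genes and 8 of their direct targets in sterol efflux and phospholipid remodelling were followed in mouse livers with and without a hairpin against Raly. The set was chosen by name: every non-control probe assigned to Nr1h3, Nr1h2, Abca1, Abcg1, Abcg5, Abcg8, Lpcat3, Pltp, Arl4c or Smpdl3a. All 10 genes were on the array, on 12 of its 55681 different probes. All 10 were among the 14743 genes that could be tested. The shRaly group comprised 4 arrays of liver RNA from mice given an adenoviral pblockIT vector with a hairpin against Raly (pblockITshRaly), and the control group 4 arrays from mice given pblockITcontrol. All mice were of the bl6 strain, 12 weeks old and on chow, the virus amount in the labels is 2e+09 with no unit, and RNA was taken on day 6. Both groups therefore carried an adenovirus, and no untreated liver is among these samples. The labels number the samples and do not say that each came from a different animal, so every p-value here refers to variation among these 8 arrays, which may be technical.

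LXRs are nuclear receptors that are activated by oxysterols and by some intermediates of cholesterol synthesis, and they bind DNA as heterodimers with retinoid X receptors. In liver they raise genes that move cholesterol out of cells, into bile or onto lipoprotein particles, and genes that remodel phospholipids. Nr1h3 encodes LXR alpha, the form that is abundant in liver, and Nr1h2 encodes LXR beta, which most tissues make.

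As a check of the labels, Raly stood at 51.8%, 81.1%, 58.2% and 62.9% of the control mean on shRaly arrays 1 to 4, against 100.5%, 84.2%, 105.4% and 112.1% on control arrays 1 to 4. Every shRaly array was lower than every control array (p = 0.0286 in a two-sided exact permutation test, the minimum this design can reach), and the log2 fold change was -0.67 (SE 0.15; limma adjusted p = 0.0769). Hepatocyte markers were well above background on all 8 arrays for 9 of 9 genes. Of the 5 adipocyte and pancreas markers, 1 passed the filter. The array labelled shRaly 2 had the least spots well above background (45.9%, against 49.1% to 51.1% on the others) and the Raly level closest to the controls. None of the 10 genes passed the threshold used below with this array or without it. All arrays lay on 1 slide, with the shRaly samples in row 2 and the controls in row 1, so the slide row and the treatment cannot be told apart. In both groups the replicate number was also the slide column.

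The probes are 60-base oligonucleotides, and those of 6 genes are shown because the comparisons below turn on what each probe reads. The sequences are printed 5′ to 3′ as the array files give them, with no base marked by capitals. The Abca1 probe lies at chr4:53043944-53044003, the Abcg5 probe at chr17:85057593-85057652, the Abcg8 probe at chr17:85098745-85098804 and the Pltp probe at chr2:164665022-164665081, in mouse build mm9. The brighter Nr1h3 probe lies at chr2:91024250-91024309 and the second at chr2:91024345-91024404, with 35 bases between them. The Arl4c probe that was detected lies at chr1:90594805-90594864. The other Arl4c probe, detected on no array, lies 24825 bases away at chr1:90569920-90569979. The Abcg8 probe is annotated to the plus strand and the rest to the minus strand. Of the probes not printed here, that of Nr1h2 lies at chr7:51805013-51805072 (minus strand), that of Abcg1 at chr17:31252580-31252639 and that of Smpdl3a at chr10:57531406-57531465 (plus strand). Exon and UTR annotation on this build was not analysed here.
Abca1: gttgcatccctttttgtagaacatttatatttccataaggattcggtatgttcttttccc
Abcg5: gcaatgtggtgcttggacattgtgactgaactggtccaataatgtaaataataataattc
Abcg8: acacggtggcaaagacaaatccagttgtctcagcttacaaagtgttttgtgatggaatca
Pltp: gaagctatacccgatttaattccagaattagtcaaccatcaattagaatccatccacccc
Nr1h3, brighter probe: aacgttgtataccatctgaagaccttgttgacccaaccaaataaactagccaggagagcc
Nr1h3, second probe: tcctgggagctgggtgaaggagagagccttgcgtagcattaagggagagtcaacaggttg
Arl4c, detected probe: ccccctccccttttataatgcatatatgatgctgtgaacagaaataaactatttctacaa
Arl4c, undetected probe: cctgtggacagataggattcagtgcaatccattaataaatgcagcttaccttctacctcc

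The comparison of the groups asks whether the LXR arm of sterol control differed when Raly was knocked down. None of the 10 genes passed the threshold of a limma adjusted p of 0.05: 0 were higher and 0 lower in shRaly livers, where 1.22% of all genes tested passed (0.312% higher and 0.909% lower). At an unadjusted p under 0.05 there were 2 of the 10, Abcg5 and Abca1, beside 16.2% of all genes. The groups did not overlap for 2 of the 10, Abcg5 and Nr1h3, both higher in shRaly livers, where 10.5% of all genes had groups that did not overlap, 4.14% with the shRaly group higher and 6.34% with it lower. The median log2 fold change of the 10 genes was -0.0019, beside -0.016 for all genes tested, with 5 genes above 0 and 5 below. Single log2 fold changes ran between -0.44 (Pltp) and 0.28 (Abcg5). Each of the 10 was detected above background on every one of the 8 arrays, and none of their spots was excluded by the scanner's quality marks.

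**Figure D1:**
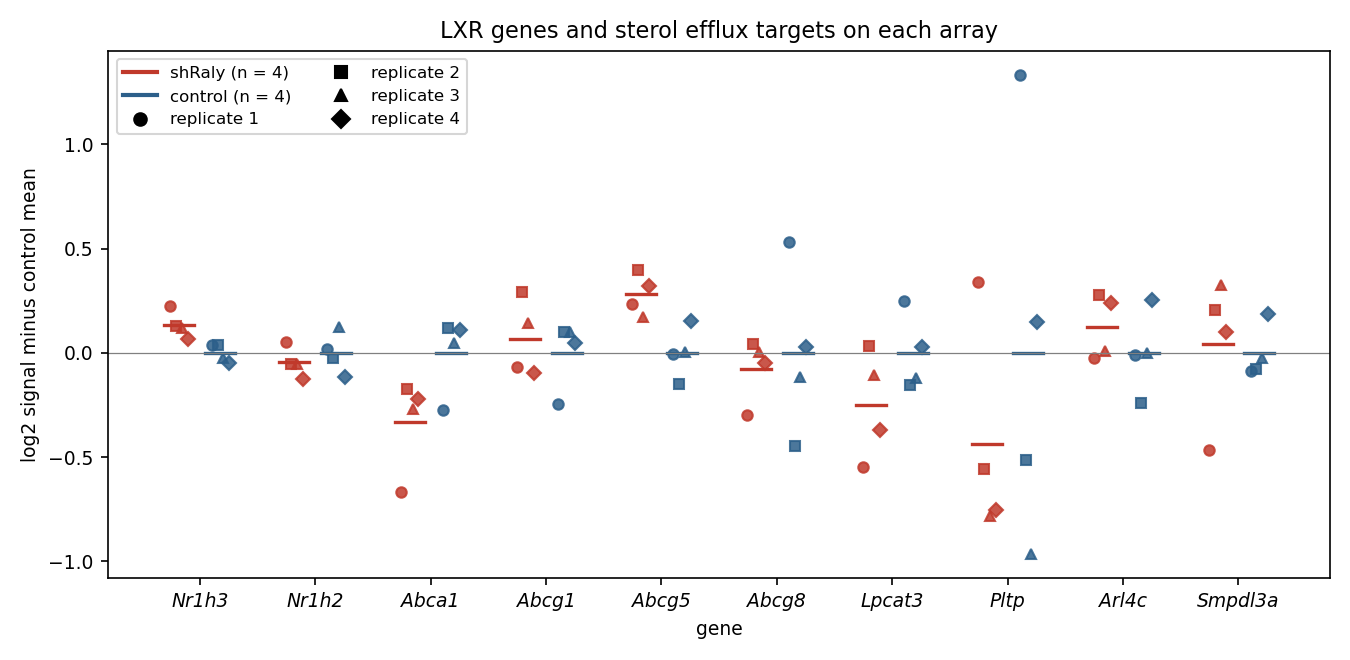
Log2 signal of each of the 10 genes on each array, minus the mean of the 4 control arrays (vertical axis, log2 units), with shRaly arrays in red and control arrays in blue for each gene along the horizontal axis. Marker shape gives the replicate number and the short line the group mean; the groups do not overlap for Nr1h3 and Abcg5, and Pltp has the widest spread.

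Of the 2 receptors, Nr1h3 had slightly higher signal in shRaly livers by its brighter probe, at 116.7%, 109.3%, 108.6% and 104.6% of the control mean on shRaly 1 to 4, against 102.6%, 102.5%, 98.3% and 96.7% on control 1 to 4. The lowest shRaly array was above the highest control array. The log2 fold change was 0.13 (SE 0.078, 95% interval -0.042 to 0.31), and the limma adjusted p was 0.440. After normexp background correction the log2 fold change was 0.056. The second Nr1h3 probe did not show this difference: it stood at 111.4%, 97.6%, 99.3% and 94.1% on shRaly 1 to 4, against 100.7%, 103.7%, 95.4% and 100.4% on control 1 to 4. There the groups overlapped, and the log2 fold change was 0.0058 (SE 0.090, interval -0.20 to 0.21; limma adjusted p = 0.987 in a fit over 26943 probes). In that same fit the brighter probe had an adjusted p of 0.512, and 0.698% of the probes passed.

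Nr1h2 stood at 103.6%, 96.3%, 96.3% and 91.8% of the control mean on shRaly 1 to 4, against 101.1%, 98.4%, 109.1% and 92.2% on control 1 to 4, and the groups overlapped, with control 3 above every shRaly array and shRaly 4 below every control. The log2 fold change of -0.045 (SE 0.087; limma adjusted p = 0.845) had an interval of -0.24 to 0.15, or 84.5% to 111.1% of the control level.

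Abca1, the transporter that loads cholesterol and phospholipid onto nascent high-density lipoprotein, had 63.1%, 88.8%, 83.0% and 85.8% of the control mean on shRaly 1 to 4, against 82.6%, 108.7%, 103.2% and 107.9% on control 1 to 4. The shRaly arrays lay below 3 of the 4 controls, and control 1 lay below shRaly 2, 3 and 4. The log2 fold change was -0.33 (SE 0.14, interval -0.65 to -0.015), with an unadjusted p of 0.0418 and a limma adjusted p of 0.286. Within each group the replicate numbered 1 was the lowest, at 63.1% in shRaly and 82.6% in control.

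Abcg1, the half-transporter that passes cholesterol to mature high-density lipoprotein, had 95.5%, 122.5%, 110.5% and 93.6% of the control mean on shRaly 1 to 4, against 84.3%, 107.2%, 107.0% and 103.4% on control 1 to 4. The groups overlapped, with a log2 fold change of 0.069 (SE 0.12; limma adjusted p = 0.831) and an interval of -0.21 to 0.35. Without control 1 the sign turned (-0.014), and likewise without shRaly 2 (-0.0061). Both exporters are also made by macrophages. The 11 of 12 Kupffer cell and macrophage markers that passed the filter had a summed level of 6.63 to 7.0 on the log2 scale in shRaly livers and 6.58 to 7.06 in control livers, with the replicate numbered 1 lowest in both groups. None of the 11 passed the threshold, and their median log2 fold change was -0.015. Being lowest on replicate 1 was not particular to these markers. Summed endothelial markers were also lowest there in each group (5.73 in shRaly, 5.99 in control). The same held for genes of high-density lipoprotein particles (10.13 and 10.35) and for sterol ligand enzymes (8.50 and 8.76). For hepatocyte markers shRaly 1 was the lowest shRaly array, but control 3 was the lowest control. In RNA of whole liver, fewer cells of a type and less RNA per cell cannot be told apart, and the part of macrophage content in the Abca1 and Abcg1 values was not tested.

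**Figure D2:**
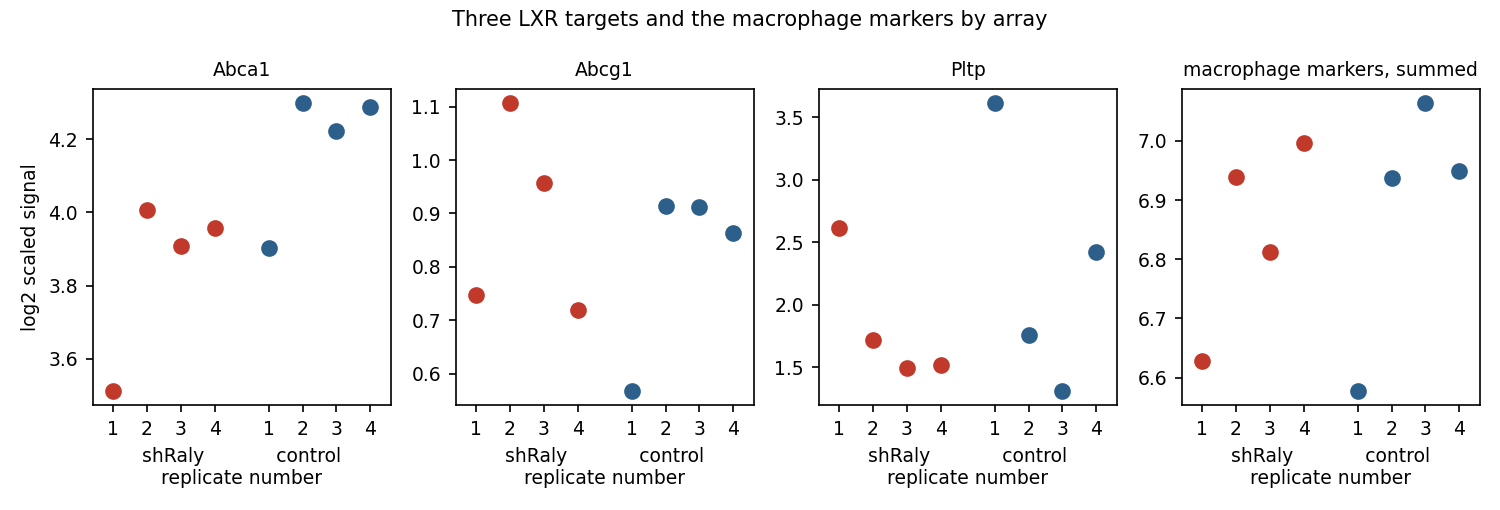
Log2 scaled signal (vertical axis, a separate scale in each panel) of Abca1, Abcg1, Pltp and the summed Kupffer cell and macrophage markers on each array, with shRaly arrays in red at left and control arrays in blue at right, ordered by replicate number. Replicate 1 is lowest for Abca1 and the markers in both groups and highest for Pltp in both groups.

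Abcg5 and Abcg8 encode the half-transporters that pair to secrete sterols into bile. Abcg5 had the smallest p of the 10 genes. It stood at 117.6%, 131.7%, 112.5% and 124.8% of the control mean on shRaly 1 to 4, against 99.5%, 90.3%, 100.3% and 111.0% on control 1 to 4, so all 4 shRaly arrays lay above all 4 controls. The log2 fold change was 0.28 (SE 0.096, interval 0.063 to 0.50), which is 121.4% of control, with an unadjusted p of 0.0170 and a limma adjusted p of 0.200. The nearest arrays of the groups, shRaly 3 and control 4, lay close together, and after normexp background correction the log2 fold change was 0.19. The Abcg8 groups overlapped, with 81.2%, 103.0%, 100.1% and 96.6% on shRaly 1 to 4, against 144.6%, 73.4%, 92.4% and 102.0% on control 1 to 4. Its controls spread over a 1.97-fold range that held every shRaly value. The log2 fold change was -0.076 (SE 0.19, interval -0.51 to 0.36, limma adjusted p = 0.885), and without control 1 it was 0.10. This interval, 70.2% to 128.2% of control, includes the Abcg5 value, so Abcg8 could differ as Abcg5 did.

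The 2 genes lie head to head on chromosome 17. The RefSeq table of build GRCm38.p6 has 1 promoter window for Abcg5 and 2 for Abcg8, and the Abcg5 window shares 209 bases with the nearer Abcg8 one. The sequence between these starts is shown because both genes are read outward from it; it holds 109 bases at chr17:84683012-84683120 (GRCm38.p6, plus strand, the direction of Abcg8), with no base marked by capitals.
Abcg5 to Abcg8: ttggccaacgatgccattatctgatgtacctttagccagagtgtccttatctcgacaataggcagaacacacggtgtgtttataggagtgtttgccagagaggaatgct

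Lpcat3, the acyltransferase that places polyunsaturated chains into phosphatidylcholine, had 68.4%, 102.4%, 92.8% and 77.2% of the control mean on shRaly 1 to 4, against 118.7%, 89.9%, 91.9% and 102.0% on control 1 to 4. The groups overlapped, although shRaly 1 and shRaly 4 were below every control. The log2 fold change was -0.25 (SE 0.15, interval -0.59 to 0.089; limma adjusted p = 0.455). The coordinates of this 60-base probe, chr6:124653374-124653542 in mm9, span 169 bases, more than its own length.

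Pltp, the plasma phospholipid transfer protein, varied more between arrays of the same group than any other gene of the set. It had 126.6%, 67.9%, 58.1% and 59.3% of the control mean on shRaly 1 to 4, against 252.0%, 69.9%, 51.3% and 110.7% on control 1 to 4. The controls alone spanned a 4.92-fold range, and 0.434% of all genes tested had a control range at least as wide and 1.24% a standard error at least as large. The log2 fold change of -0.44 (SE 0.47; limma adjusted p = 0.694) has an interval of -1.50 to 0.62, or 35.3% to 154.2% of control, which is the least precise estimate of the 10 genes. Without control 1 the log2 fold change was 0.0055.

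Arl4c, a small GTPase of the ARF family and an LXR target in macrophages, had 98.1%, 121.2%, 100.7% and 118.2% of the control mean on shRaly 1 to 4 by its detected probe, against 99.3%, 84.5%, 100% and 119.1% on control 1 to 4. The groups overlapped (log2 fold change 0.13, SE 0.13, interval -0.16 to 0.41; limma adjusted p = 0.671). The second Arl4c probe was above background on 0 of 8 arrays, and no fold is given for it. Smpdl3a, a secreted phosphodiesterase, had 72.4%, 115.1%, 125.3% and 107.3% on shRaly 1 to 4, against 94.1%, 94.9%, 98.4% and 113.8% on control 1 to 4. Its shRaly arrays lay on both sides of the controls, and its log2 fold change was 0.041 (SE 0.17, interval -0.34 to 0.42; limma adjusted p = 0.932).

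**Figure D3:**
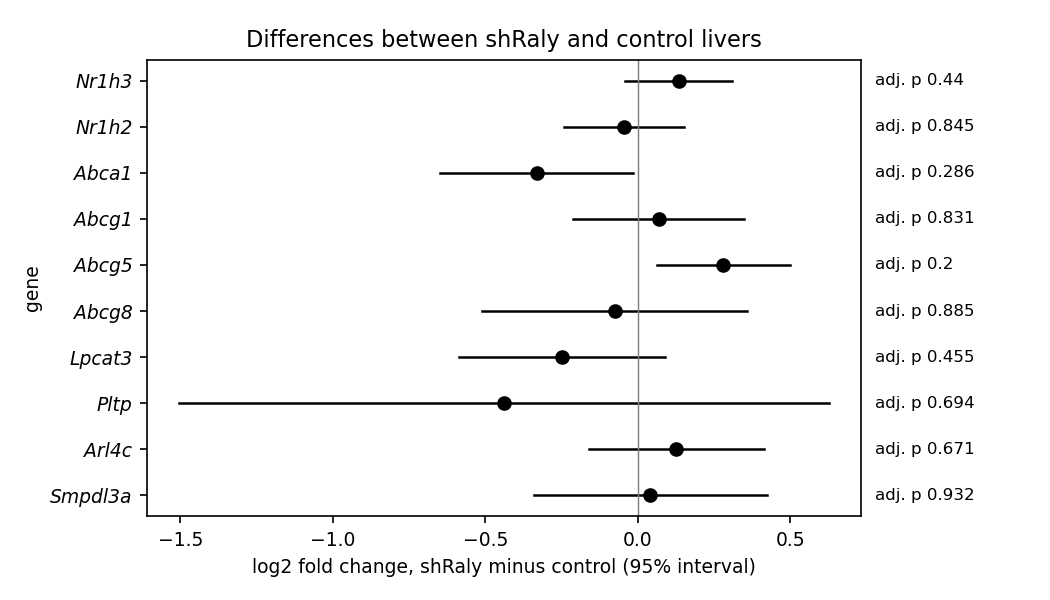
Log2 fold change of shRaly over control for each of the 10 genes (points) with its 95% interval from limma (lines, 1 gene at a time), and the adjusted p at right. The intervals of Abca1 and Abcg5 leave out 0 before adjustment, on opposite sides, and the smallest adjusted p is that of Abcg5.

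Because array-wide scaling cancels within an array, the 2 genes of each role were also compared with each other on every array, which gave 5 pairs, a comparison added after the data were seen. For Nr1h3 minus Nr1h2 the log2 difference was higher in shRaly livers by 0.18 (SE 0.051), and the groups did not overlap (exact permutation test, two-sided p = 0.0286; adjusted over the 5 pairs 0.0714). For Abca1 minus Abcg1 it was lower by 0.40 on the log2 scale (-0.40, SE 0.10), also without overlap (exact two-sided p = 0.0286; adjusted 0.0714). No pair passed after adjustment. An exact p of 0.0286 is the minimum this design can reach. With only 2 of the 5 pairs at that minimum, no pair could pass 0.05 after adjustment, so this outcome does not show that the pairs are alike. For Abcg5 minus Abcg8 the difference was 0.36 (SE 0.20, interval -0.13 to 0.84; exact two-sided p = 0.0571, adjusted 0.0952), and the groups overlapped. Lpcat3 minus Pltp (0.19, SE 0.55) and Arl4c minus Smpdl3a (0.084, SE 0.17) had adjusted exact p-values of 0.686 each. The Nr1h3 difference rests on the brighter of its probes. With normexp background correction or quantile scaling, Nr1h3 minus Nr1h2 was 0.15 to 0.18 (adjusted exact p 0.0714 to 0.143). Abca1 minus Abcg1 was -0.40 to -0.39 in these settings (adjusted exact p 0.0714 to 0.238). The higher p is above what groups without overlap can give, so that lack of overlap did not hold in both settings.

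**Figure D4:**
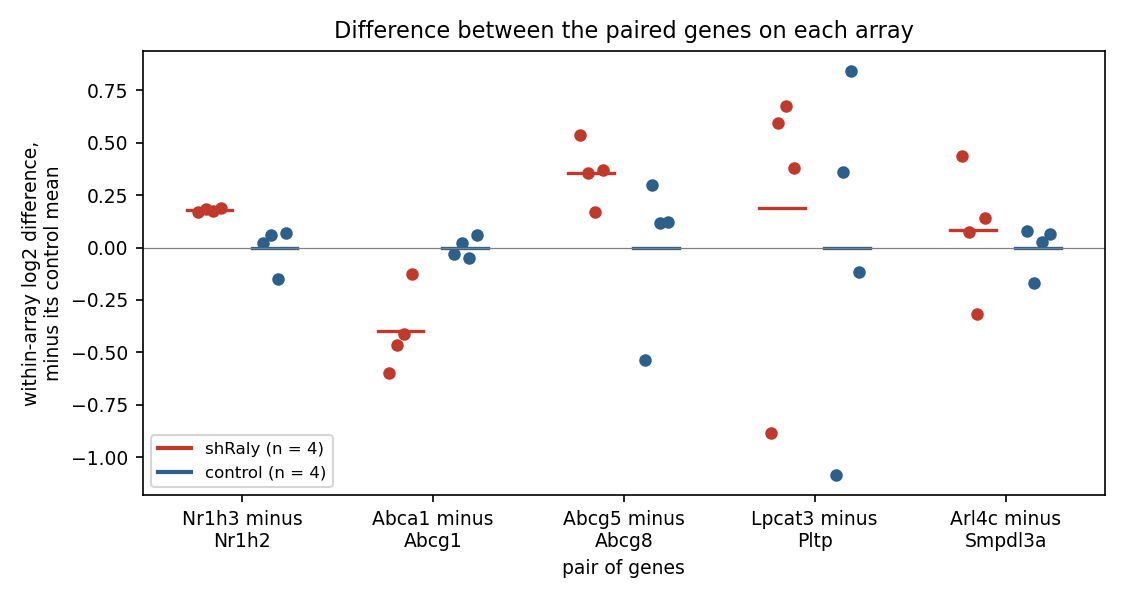
Within-array log2 difference between the 2 genes of each pair, minus the mean of that difference over the control arrays (vertical axis, log2 units), for the 4 shRaly arrays in red and the 4 control arrays in blue. Short lines are group means; the groups do not overlap for Nr1h3 minus Nr1h2 and for Abca1 minus Abcg1.

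LXR and its partner bind direct repeats of a hexamer, and the stretch upstream of Abca1 is shown because it holds a match to that repeat with 3 mismatches. RefSeq promoter windows (250 bases before to 50 after a start, build GRCm38.p6) were found for 8 of the 10 genes, in 10 windows. The motif searched was AGGTCA repeated once after a spacer of 4 free bases, on both strands, with up to 3 mismatches at its 12 fixed bases. It was found in 2 of the 10 windows, those of Abca1 and Arl4c, and in 21.9% of all 32851 windows in the table, a share close to that of the members. The Abca1 match, in capitals below, lies 67 to 52 bases before the start. It reads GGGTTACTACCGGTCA on the strand opposite to the gene, and it differs from the motif by A1G, C5T and A11C, counted from 1 at the motif's 5′ end with the motif's base first. The stretch covers 80 bases at chr4:53159915-53159994 (GRCm38.p6, minus strand). A match is a description of letters and not a measured site.
Abca1 upstream: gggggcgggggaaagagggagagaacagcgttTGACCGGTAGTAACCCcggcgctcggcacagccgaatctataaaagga

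The wider LXR pathway had no gene past the threshold in either direction. All 11 retinoid X receptors and coregulators were tested, with 0 higher, 0 lower and a median log2 fold change of 0.032. The smallest p among them was that of Rxrg, the gamma form of the retinoid X receptor, at 1.83, 1.98, 2.19 and 2.12 log2 scaled signal on shRaly 1 to 4, against 2.39, 2.27, 2.34 and 2.46 on control 1 to 4. The groups did not overlap, the log2 fold change was -0.34 (SE 0.10) and the limma adjusted p was 0.157. The other retinoid X receptor genes were named after their values were seen, and neither shared both the direction and the size of Rxrg. Rxrb had a log2 fold change of 0.11 with the shRaly arrays all above the controls (limma adjusted p = 0.516). Rxra had the sign of Rxrg, at -0.056 with overlapping groups (limma adjusted p = 0.817). Its probe gave a lower signal, with a control mean of 0.15 log2 scaled signal beside 2.36 for Rxrg and 4.87 for Rxrb.

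Among 14 other LXR targets 0 rose and 0 fell past the threshold, with a median log2 fold change of -0.050 and single values between -0.79 and 0.53. Scd2, a stearoyl-CoA desaturase, had the smallest p: its log2 scaled signal was -0.13, -0.14, -0.29 and -0.37 on shRaly 1 to 4, against 0.058, -0.046, 0.24 and 0.18 on control 1 to 4 (log2 fold change -0.34, SE 0.10; limma adjusted p = 0.15). All shRaly arrays of Scd2 lay below all controls. Of the same list, 3 genes were chosen after their values were seen. Srebf1, through which LXR drives fatty acid synthesis, had a log2 fold change of 0.11 (SE 0.22), and Mylip, the LXR-induced ubiquitin ligase that degrades the LDL receptor, 0.038 (SE 0.15). Fasn, fatty acid synthase, had the lowest value of the list, -0.79 (SE 0.32), with a limma adjusted p of 0.267.

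Of the 8 enzymes that make or clear sterol ligands, 6 passed the filter and 0 of them the threshold (median -0.059). The 8 genes of high-density lipoprotein particles had a median of -0.25 with 0 past the threshold. For these particle genes the array medians relative to the control mean were -0.66, 0.017, -0.045 and -0.11 on shRaly 1 to 4. Those of the control arrays ran from -0.11 to 0.11, so only shRaly 1 stood clearly apart. Scarb1, the hepatic receptor for that particle, stood at 3.86, 4.29, 4.05 and 4.22 log2 scaled signal on shRaly 1 to 4, against 4.26, 4.37, 4.55 and 4.52 on control 1 to 4. Only shRaly 2 lay above the lowest control, with a log2 fold change of -0.32 (SE 0.12; limma adjusted p = 0.236).

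Of 14 other ABCA and ABCG transporters 11 were tested and 0 passed (median -0.11). Abca3, a lipid transporter best known from lung surfactant, had the smallest p, at 4.12, 4.22, 4.0 and 4.25 on shRaly 1 to 4, against 4.52, 4.48, 4.36 and 4.36 on control 1 to 4 (log2 fold change -0.28, SE 0.091; limma adjusted p = 0.185). Of 12 close relatives of Lpcat3, Pltp, Arl4c and Smpdl3a, 8 were tested and 0 passed (median 0.11). Arl4d, a GTPase of the same family as Arl4c, had 2.91, 3.02, 3.80 and 4.11 log2 scaled signal on shRaly 1 to 4, against 1.97, 2.52, 2.51 and 2.58 on control 1 to 4. Every shRaly array of Arl4d was above every control, with a log2 fold change of 1.07 (SE 0.28), and the limma adjusted p was 0.112.

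Cholesterol synthesis, the opposite arm of sterol control, was measured on the same arrays. Of its 20 enzymes 11 fell past the threshold and 0 rose, with a median log2 fold change of -0.86. The count was 4 to 6 without any single control array, 6 without shRaly 3 and 5 without shRaly 4. It was 3 with the replicate number as a block, 4 when dim probes were kept and 15 after normexp background correction. Sqle, squalene epoxidase, averaged 2.35 ± 0.042 log2 scaled signal in shRaly livers and 3.43 ± 0.088 in control livers (SD, n = 4 each), a log2 fold change of -1.08 (limma adjusted p = 0.00183). Ebp, the sterol isomerase, and Mvd, mevalonate diphosphate decarboxylase, had log2 fold changes of -2.07 (SE 0.19) and -1.26 (SE 0.12), each with a limma adjusted p of 0.00474. The array medians of this list ran from -1.04 to -0.65 in shRaly livers and from -0.19 to 0.056 in control livers, relative to the control mean, whereas those of the 10 LXR genes ran from -0.073 to 0.086 in shRaly livers and from -0.11 to 0.079 in control livers. The difference between the 2 lists was not tested.

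**Figure D5:**
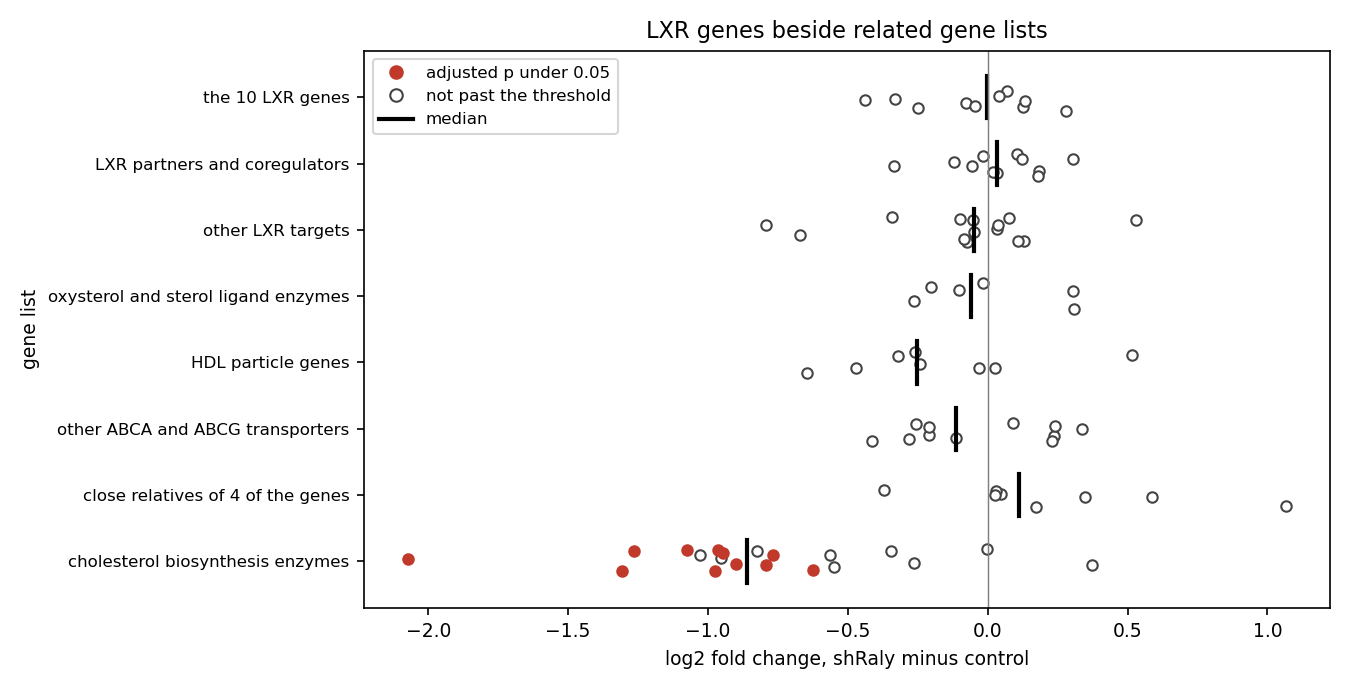
Log2 fold change of shRaly over control (horizontal axis) for each gene tested in the 10 LXR genes and in 7 related lists. Filled red points passed the limma adjusted p of 0.05, open points did not, and the black bar is the list median; the passing genes are all cholesterol biosynthesis enzymes.

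Of the remaining markers, none passed the threshold in any list of endothelial (8 tested), stellate cell and fibroblast (7), T and NK (6), B (4), neutrophil (4) or cholangiocyte (4) genes. The endothelial markers were at -0.28 to -0.084 in shRaly livers and -0.076 to 0.066 in control livers, as array medians relative to the control mean, with a median log2 fold change of -0.16, and these groups of medians did not overlap. Stellate cell and fibroblast markers stood at a median of -0.25, with array medians of -0.33 to -0.072 in shRaly livers and -0.25 to 0.33 in control livers. Their summed level, made up mostly by the brightest gene, was 6.22 to 6.49 in shRaly livers and 6.21 to 6.50 in control livers. The neutrophil markers had a median of 0.41, with array medians of 0.22 to 0.72 in shRaly livers and -0.63 to 0.52 in control livers. All 4 B cell markers were below 0 (median -0.24), with array medians of -0.39 to 0.064 in shRaly livers and -0.14 to 0.19 in control livers. T and NK markers had a median of 0.088, with 4 above 0 and 2 below. Their summed level was 4.44 to 5.24 in shRaly livers and 5.14 to 5.65 in control livers. The part of these cell types in the LXR gene values was not tested.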

How the data were processed

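The authors deposited 8 single-colour Agilent scanner files of 1 array design. Per the file headers, the processed signal intensity comes from Agilent Feature Extraction 11.5.1.1, had spatial and multiplicative detrending switched on, and its 75th percentile differed between arrays. The deposited table of the whole series equalled it on 62976 of 62976 spots of every array, so it is linear and uncentred, with column medians of 13.3 to 16.4. Other flags (well above background, outlier, saturation) are also the authors' deposited scanner output.

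Here log2 values of this signal were centred by subtracting the 75th percentile of the same array (7.86 to 8.19); percentages of the control mean are taken from that scale. Between 137 and 163 outlier spots per array were left out, and no spot was saturated. Probes were named by RefSeq accession (27656), symbol (3401), older symbol (321) or the file's name (1481), through a table of GRCm38.p6. A gene was tested if a probe was well above background on at least 4 arrays with 3 values per group, and its brightest such probe stands for it. The groups were compared with limma 3.58.1 in R 4.3.3, with p-values adjusted by Benjamini-Hochberg across the 14743 genes. All arrays shared 1 slide and 1 scan, so no batch term was fitted. The alternatives were normexp background correction, quantile or median scaling, other filters on dim probes, the mean of a gene's probes, the deposited table, a replicate block and leaving out each array. The number of arrays limits the precision. In data simulated for shRaly against control (14721 genes) the test recovered 2% of genes changed 1.25-fold, 40% at 1.5-fold, 76% at 2-fold and 96% at 4-fold. Of all simulated calls, 6.96% were of unchanged genes. The simulated noise was drawn for each gene on its own, with no variation shared across an array, so rates on the real arrays may differ.

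The 10 genes and the lists were chosen with earlier results of these data known. Genes named are all 10, Raly, and from each pathway list up to 3 past the threshold or, with none, the 1 of smallest p; others are said to be chosen after their values were seen. A gene that this rule names is not reported here. The comparison of gene pairs was added after the data were seen. Same-numbered arrays of the 2 groups, which shared a slide column, deviated together over all genes with correlations of 0.082, -0.019, -0.073 and 0.13. The main fit therefore did not use the numbers as pairs. Single genes can differ from this. With the replicate number as a block the SE was 0.089 for Abca1 and 0.23 for Pltp, against 0.14 and 0.47 without it. It was also smaller for Abcg1 and Smpdl3a, and larger for the other members.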

Additional observations from a re-analysis of the deposited data

Results flagged for a closer look

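Of the values of the 10 genes and of Raly in each group of 4 arrays (24 groups), 1 had a sample far from the others: Abcg1 on control 1, at 0.57 on the log2 scale, beside 0.86 to 0.91 on the other controls. Its gap was 0.853 of the group's range, over Dixon's 95% critical value, and chance alone marks about 1 in 20 such groups. On the same array Pltp was the highest of all 8 and the summed macrophage markers the lowest.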

How the results depend on the processing

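No member passed the threshold in any of the 16 other settings (0 calls in 160 fits; smallest limma adjusted p 0.155), which left out each array in turn or changed the background correction, scaling, dim-probe filter, probe rule, replicate block or source table. Several of these settings left the fold changes as they were. The source table held the same signal, so it repeated the main fit. The dim-probe filters and the replicate block kept every member's log2 fold change and changed only its error and p-values. The mean of probes moved only Nr1h3. The direction of Abca1, Abcg5, Nr1h3, Nr1h2, Lpcat3 and Arl4c held in all 16, these unchanged values included, but their sizes moved in the other settings. Over the leave-outs Abca1 ran from -0.42 to -0.22 (without shRaly 1), Abcg5 from 0.23 to 0.33, Nr1h3 from 0.10 to 0.16, Nr1h2 from -0.084 (without control 4) to -0.0032 (without control 3), Lpcat3 from -0.34 to -0.15 (without shRaly 1) and Arl4c from 0.044 (without control 2) to 0.21 (without control 4). With normexp Abcg5 was 0.19 (limma adjusted p = 0.413), Nr1h3 0.056, Nr1h2 -0.096 and Arl4c 0.064, and with the mean of its probes Nr1h3 was 0.070. Signs turned for Abcg1 without control 1 (-0.014) and without shRaly 2 (-0.0061), Abcg8 (0.10) and Pltp (0.0055) without control 1, and Smpdl3a with normexp (-0.022), without shRaly 2 (-0.013) and without shRaly 3 (-0.054). The leave-outs ran from -0.014 to 0.12 for Abcg1, -0.22 to 0.10 for Abcg8, -0.76 to 0.0055 for Pltp and -0.054 to 0.21 for Smpdl3a. The member median ran from -0.048 (without shRaly 3) to 0.051 (without shRaly 1). Among pairs, Nr1h3 minus Nr1h2 ran from 0.13 to 0.20, Abca1 minus Abcg1 from -0.49 to -0.33, Abcg5 minus Abcg8 from 0.18 to 0.46, Lpcat3 minus Pltp from -0.17 to 0.55 and Arl4c minus Smpdl3a from -0.034 to 0.22 over the leave-outs. Raly passed with normexp (-0.71, limma adjusted p = 0.0115) and without shRaly 2 (-0.80, 0.0304); leave-outs gave -0.80 to -0.58. The cholesterol enzymes called lower numbered 4 with no filter on dim probes, 3 with the replicate block, 15 with normexp and 4 to 14 over the leave-outs (14 without shRaly 2). All genes called numbered 29 with no filter, 46 with the replicate block and 17 to 285 over the leave-outs (54, 17, 20 and 47 without control 1 to 4, and 114, 285, 47 and 20 without shRaly 1 to 4). They numbered 252 with normexp and 129 with median scaling, where 17.8% were higher, against 25.6% with the 75th percentile. The cause was not tested.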
